A study of Mus musculus with 11 samples.

Results

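The genes *Spp1*, *Cyr61*, *Wisp1*, and *Lgals3bp*, which encode secreted proteins of the extracellular matrix, were followed in HaCa4 cells grown alone or with lymphatic endothelial cells (LECs). The 4 genes were taken by their symbols from the 290 genes that the HaCa4 tables hold, and all 4 are listed in each of the 5 HaCa4 libraries. HaCa4 is a mouse skin squamous carcinoma line that carries an oncogenic H-Ras mutation. HaCa4 control (n = 2) was a single culture of these cells, and HaCa4-sorted (n = 3) was the same line after 24 h of co-culture with LECs, recovered by FACS through the dye CFSE. The partner cells, named imLEC in the labels, are conditionally immortal mouse LECs with a temperature-sensitive SV40 large T antigen under an interferon-inducible promoter, and 2 clones of them were used as equivalent in the study. They were expanded with IFN-γ, which was withdrawn before functional assays, and whether this was so before the sequenced co-cultures is not given in the sources used here. The controls are not clearly stated to have been sorted, so co-culture and sorting cannot be told apart in this comparison. The LEC tables hold 191 genes and none of the 4, so LEC levels were not analysed here.

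Matricellular proteins are secreted into the matrix but act mainly as signals, binding integrins and other surface receptors rather than bearing load. *Spp1* encodes osteopontin, an acidic phosphoprotein that binds integrins and CD44 and is abundant in many carcinomas. *Cyr61* (also *Ccn1*) and *Wisp1* (also *Ccn4*) belong to the CCN family, cysteine-rich proteins built from shared modules, of which *Cyr61* is a well-known target of YAP/TAZ and *Wisp1* of WNT signalling. *Lgals3bp* encodes galectin-3-binding protein, a large glycoprotein that is also induced by interferons.

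The genes (NCBI gene IDs 20750, 16007, 22402, and 19039 in the order above) lie apart in the genome. In GRCm38.p6, the build of the deposited data, RefSeq places *Spp1* on chromosome 5 from 104435111 to 104441053 and *Cyr61* on chromosome 3 from 145646971 to 145649985. *Wisp1* is on chromosome 15 from 66891369 to 66923201 and *Lgals3bp* on chromosome 11 from 118392747 to 118401959. In GENCODE M21, the principal transcripts of *Cyr61* and *Wisp1* have 5 exons each, that of *Lgals3bp* 6, and those of *Spp1* 6 or 7.

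The 250 bases before the start site are shown for 3 of the 4 genes, because the levels described below follow different neighbours and the letters of a few regulatory motifs can be looked up in them. They are RefSeq promoters of GRCm38.p6, written on the strand of the gene and covering chr5:104434861-104435110 (+, the first of the start sites listed for *Spp1*), chr3:145649986-145650235 (-), and chr11:118401960-118402209 (-). Capitals mark matches on either strand.
Spp1: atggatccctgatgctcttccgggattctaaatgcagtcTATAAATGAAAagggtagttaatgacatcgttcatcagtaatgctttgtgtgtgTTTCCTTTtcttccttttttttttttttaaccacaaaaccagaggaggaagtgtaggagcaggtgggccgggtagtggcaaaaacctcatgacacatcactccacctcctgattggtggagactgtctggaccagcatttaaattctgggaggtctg
Cyr61: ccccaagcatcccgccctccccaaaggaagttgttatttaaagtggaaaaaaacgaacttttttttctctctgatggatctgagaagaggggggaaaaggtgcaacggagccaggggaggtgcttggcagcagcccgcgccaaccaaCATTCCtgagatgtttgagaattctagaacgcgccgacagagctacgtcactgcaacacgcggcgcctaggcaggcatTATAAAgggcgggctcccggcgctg
Lgals3bp: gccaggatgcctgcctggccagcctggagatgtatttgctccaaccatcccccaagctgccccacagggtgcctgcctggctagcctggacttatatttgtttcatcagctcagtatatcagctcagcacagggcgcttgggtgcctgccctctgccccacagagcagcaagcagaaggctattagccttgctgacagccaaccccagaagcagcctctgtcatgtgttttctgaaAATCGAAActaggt

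The motifs searched were TATAAA (a core promoter element), GGAATG (bound by TEAD factors, the partners of YAP/TAZ), TGANTCA (AP-1), AANNGAAA (bound by interferon regulatory factors), and the CArG box of serum response factor. *Cyr61* had TATAAA from -25 to -20 and GGAATG from -103 to -98 on the opposite strand, counted from the start site. *Lgals3bp* had a single match, AATCGAAA for AANNGAAA, from -14 to -7. *Spp1* had TATAAA from -211 to -206 and AANNGAAA both from -208 to -201, overlapping it, and from -157 to -150 on the opposite strand. The window before its second start site, not shown, held AANNGAAA from -205 to -198. On the opposite strand it held AANNGAAA from -190 to -183 and from -172 to -165. Among 32851 RefSeq promoter windows of this length, 12.4% hold TATAAA, 12.6% GGAATG, and 21.3% AANNGAAA, so such matches are common. TGANTCA and the CArG box, held by 6.75% and 1.47% of all windows, had no match in the 3 windows shown.

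The levels are TPM, a normalised share of all transcripts that corrects for transcript length and can therefore be compared between genes. The 290 listed genes add up to between 1.84% and 2.39% of the total TPM of a HaCa4 library. The number of reads behind a value is unknown, because TPM keeps no record of it, so the precision rests on the spread between libraries. Nothing in the labels says that the libraries came from separate cultures, and the p-values then measure only the spread between these libraries. In every HaCa4 library the order of the levels was *Spp1*, *Cyr61*, *Lgals3bp*, and *Wisp1*, and no neighbours in this order overlapped within either group.

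*Spp1* was the most abundant of the 290 listed genes in 4 of the 5 libraries and ranked 2 in HaCa4-sorted replicate 2. Its level in HaCa4 control replicates 1 and 2 was 4754 and 4855 TPM, against 3024, 1850, and 2994 TPM in HaCa4-sorted replicates 1 to 3. The controls lay close together and above all sorted libraries, and sorted replicate 2 stood well below the other two. The means were 4804 ± 71.3 TPM (SD, n = 2) without LECs and 2622 ± 669 TPM (SD, n = 3) after co-culture, a ratio of 0.546. *Spp1* alone held 0.475% and 0.485% of the total TPM in single culture but 0.302%, 0.185%, and 0.299% after co-culture.

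*Cyr61* had 274 and 197 TPM in single culture, against 472, 291, and 426 TPM in the 3 sorted libraries. The groups did not overlap, but sorted replicate 2 was only slightly above control replicate 1. The means were 235 ± 54.2 TPM (SD, n = 2) and 397 ± 94.0 TPM (SD, n = 3), a ratio of 1.69. *Wisp1* had 11.93 and 7.96 TPM in single culture, against 19.32, 13.77, and 17.84 TPM in the sorted libraries. The library order was that of *Cyr61*, with control replicate 2 lowest and sorted replicate 1 highest. The means of *Wisp1* were 9.95 ± 2.81 TPM (SD, n = 2) and 17.0 ± 2.87 TPM (SD, n = 3), a ratio of 1.71.

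*Lgals3bp* had 20.49 and 17.83 TPM in single culture, against 32.71, 31.55, and 62.57 TPM in the sorted libraries. Its groups did not overlap either, and sorted replicate 3 was far above sorted replicates 1 and 2, which were nearly equal. From 19.2 ± 1.88 TPM (SD, n = 2), the mean was 2.21 times as high after co-culture, at 42.3 ± 17.6 TPM (SD, n = 3).

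**Figure D1:**
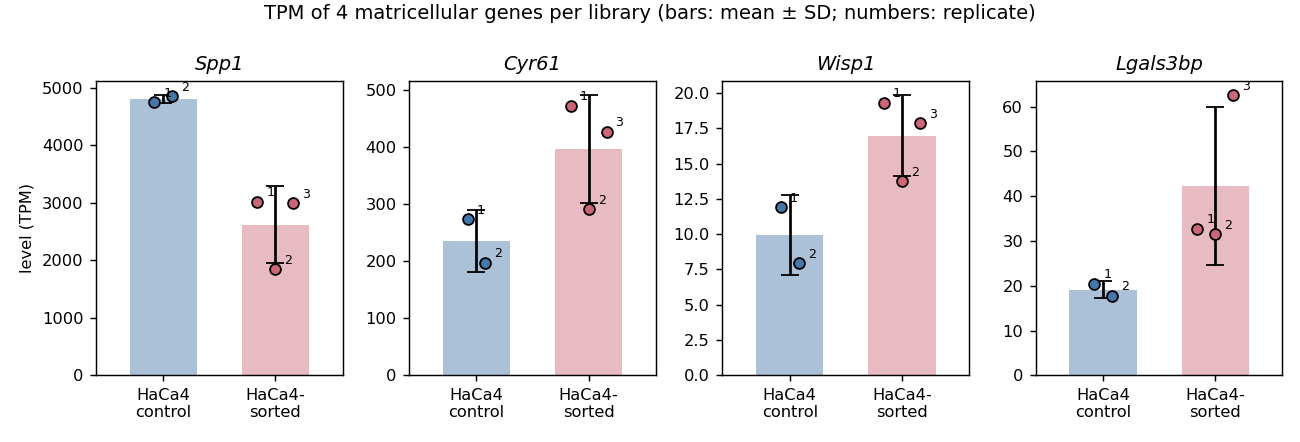
Level of each gene in TPM (y axes starting at 0, a separate scale for each panel) in HaCa4 control and HaCa4-sorted, with points for libraries by replicate number and bars for means with SD. *Spp1* was lower in all 3 sorted libraries and the other 3 genes were higher, before any rescaling of the libraries.

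HaCa4-sorted was compared with HaCa4 control by limma on log2(TPM + 1), a scale that understates the change of genes with low levels, with Benjamini-Hochberg adjustment across the 290 genes. Of the 4 genes, 2 passed both thresholds, a log2 fold change of 0.5 or more in either direction and an adjusted p no higher than 0.05. *Spp1* fell by 0.91 on that scale, with a standard error of 0.25 (limma, adjusted p = 0.0405). *Lgals3bp* rose by 1.03, with a standard error of 0.31 (limma, adjusted p = 0.0475). *Cyr61* and *Wisp1* missed the threshold, at 0.74 with a standard error of 0.24 (limma, adjusted p = 0.0543) and at 0.73 with a standard error of 0.27 (limma, adjusted p = 0.0633). The paper, using DESeq2 with the same cut-offs, reports higher expression of *Cyr61*, *Wisp1*, and *Lgals3bp* after co-culture. Of all 290 genes 30.0% passed in limma, 15.9% upward and 14.1% downward. In 96.6% the groups did not overlap, in 63.1% with the sorted libraries higher and in 33.4% with them lower. Separate groups in all 4 genes, 3 higher and 1 lower, are thus no more than the tables as a whole show. The libraries are bulk RNA, in which fewer cells of a type and less RNA per cell cannot be told apart. An exact two-sided permutation test of each gene gave p = 0.2, the smallest value that 2 against 3 libraries allow.

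The result depended on how the libraries were scaled. Both scalings tried used listed genes only, which hold a small part of the total TPM. In 63.1% of the 290 genes all sorted libraries were higher. A common median therefore moves the log2 fold changes downward by construction (median shift -0.72). When the libraries were set to a common median of the listed genes, which itself was 4.81 and 4.07 TPM in single culture against 6.34, 8.84, and 9.39 TPM after co-culture, the log2 fold changes of *Cyr61* and *Wisp1* turned to -0.13 and -0.0745. Under that scaling *Lgals3bp* was left at 0.20 (adjusted p = 0.652 from limma), whereas *Spp1* fell by 1.78 (adjusted p = 0.00352 from limma) and was the 1 gene of the 4 whose groups still did not overlap. The other scaling divided each library by the median ratio of its genes to their geometric means over the libraries. It used only genes with a mean of at least 10 TPM and moved the log2 fold changes upward (median shift 0.22). Under it *Cyr61*, *Wisp1*, and *Lgals3bp* all passed, at 1.002, 0.97, and 1.28, and *Spp1* was at -0.65 (adjusted p = 0.088 from limma). Both calls were also lost when certain single libraries were left out, as were nearly all calls among the 290 genes. Without control replicate 1, control replicate 2, or sorted replicate 3, the adjusted p of *Spp1* from limma became 0.12, 0.196, and 0.0827, and that of *Lgals3bp* 0.115, 0.203, and 0.0769. Without sorted replicate 2, *Cyr61* passed at 0.95 (adjusted p = 0.0255 from limma).

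**Figure D2:**
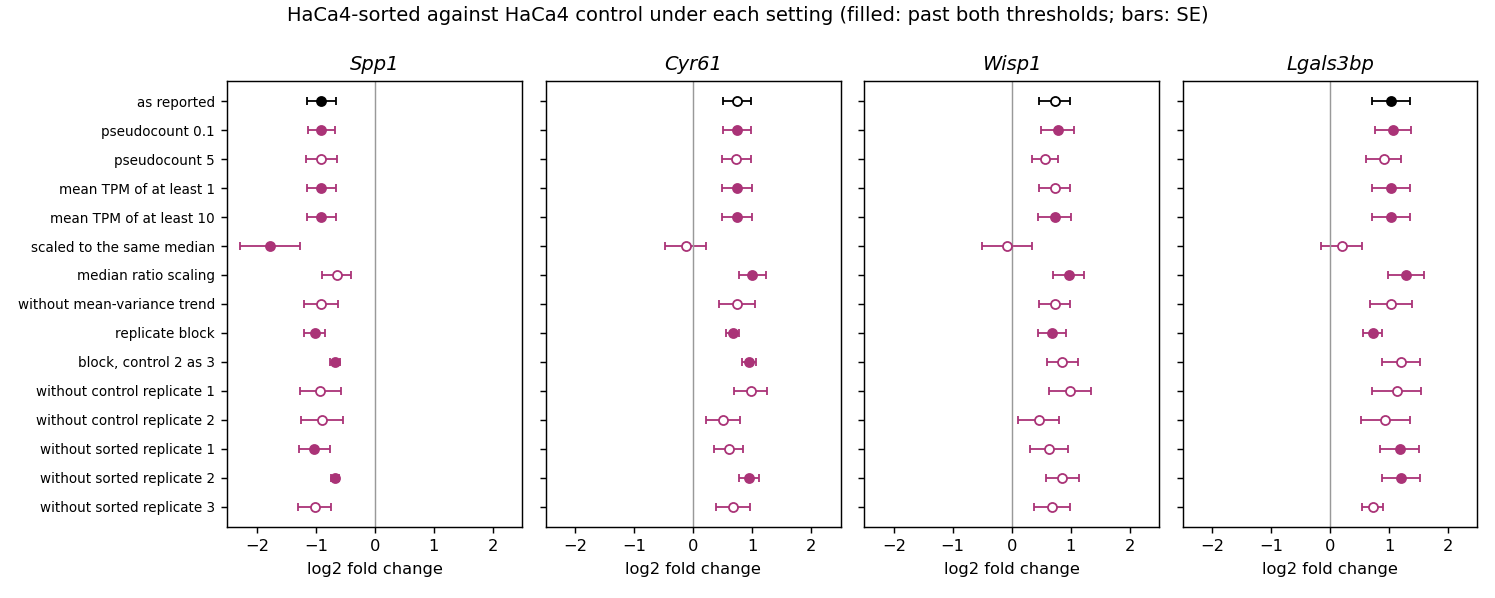
Log2 fold change of each gene (x axis, with standard error) under each way of processing the values (y axis), with filled points where both thresholds were passed. *Spp1* stayed below 0 and *Lgals3bp* above 0 in every setting, while *Cyr61* and *Wisp1* turned below 0 with libraries set to a common median.

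A ratio of 2 genes within a library does not depend on its scaling. The level of *Spp1* was 17.4 and 24.7 times that of *Cyr61* in single culture, against 6.40, 6.35, and 7.02 times in sorted replicates 1 to 3. The sorted ratios were nearly equal, although sorted replicate 2 had the lowest sorted level of both genes. *Spp1* stood at 398 and 610 times *Wisp1* in single culture but at 157, 134, and 168 times in the sorted libraries. Against *Lgals3bp* its ratio was 232 and 272 without LECs and 92.4, 58.6, and 47.8 after co-culture. Separate groups in these 3 pairs follow from the levels, since *Spp1* was lower and the other genes higher in every sorted library. Relative to *Spp1* the log2 difference between HaCa4-sorted and control was 1.65 (SE 0.20) for *Cyr61*, 1.70 (SE 0.26) for *Wisp1*, and 1.98 (SE 0.37) for *Lgals3bp*.

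The 2 CCN genes kept a narrow ratio to each other. *Cyr61* was 22.9 and 24.7 times as high as *Wisp1* in single culture and 24.4, 21.2, and 23.9 times after co-culture, so the groups overlapped. The log2 difference of this ratio was 0.04 (SE 0.09). *Lgals3bp* relative to *Cyr61* and to *Wisp1* differed by 0.33 (SE 0.42) and 0.28 (SE 0.42), with overlapping groups. Exact two-sided permutation tests of the 6 pairs gave p = 0.2 for the 3 pairs with *Spp1*, the smallest possible value, 0.6 for both pairs of *Lgals3bp* with a CCN gene, and 0.8 for *Wisp1* to *Cyr61*. After Benjamini-Hochberg adjustment over the 6 pairs these became 0.4, 0.72, and 0.8. A difference between the 3 other genes was not detectable with these libraries, which is not evidence that they change alike.

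**Figure D3:**
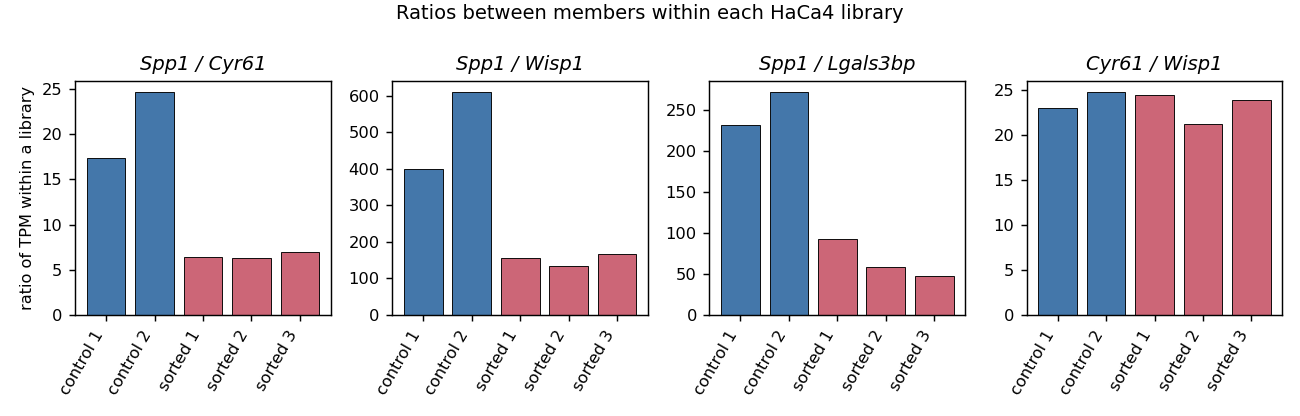
Ratio of the TPM of 2 genes within each library (y axes starting at 0, a separate scale for each panel), with controls in blue and sorted libraries in red. The ratio of *Spp1* to each other gene was lower in all 3 sorted libraries, and *Cyr61* to *Wisp1* stayed between 21.2 and 24.7.

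Genes with the most similar pattern were sought among the 138 listed genes with a mean of at least 10 TPM, by the root mean square difference of log2(TPM + 1) over the 5 libraries after centring each gene on its mean. *Wisp1* was second nearest to *Cyr61*, and *Cyr61* second nearest to *Wisp1*, at a difference of 0.08, where the median over all genes was 0.64 for *Cyr61* and 0.61 for *Wisp1*. Nearest to *Cyr61* was the tubulin gene *Tubb2b* (0.07) followed after *Wisp1* by the homeobox gene *Prrx2* (0.10). Nearest to *Wisp1* was *Fosl2* (0.08), which encodes an AP-1 subunit, and next after *Cyr61* was *Aif1l* (0.09), which encodes an actin-binding protein. *Spp1* was closest to *Rin2* (0.09), which encodes a Rab5 regulator, to the troponin gene *Tnnt2* (0.10), and to the cold-inducible *Cirbp* (0.18).

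Nearest to *Lgals3bp* was *Irgm1* (0.09), which encodes an interferon-inducible GTPase, and the unnamed locus *LOC102641031* was also close (0.12). *Irgm1* had 11.28 and 8.76 TPM in single culture, against 16.86, 18.63, and 36.66 TPM after co-culture, and did not pass (adjusted p = 0.0543 from limma). As in *Lgals3bp*, sorted replicate 3 was far above the other two. With 5 libraries, and tables in which the groups of nearly all genes do not overlap, such a resemblance is a description only.

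**Figure D4:**
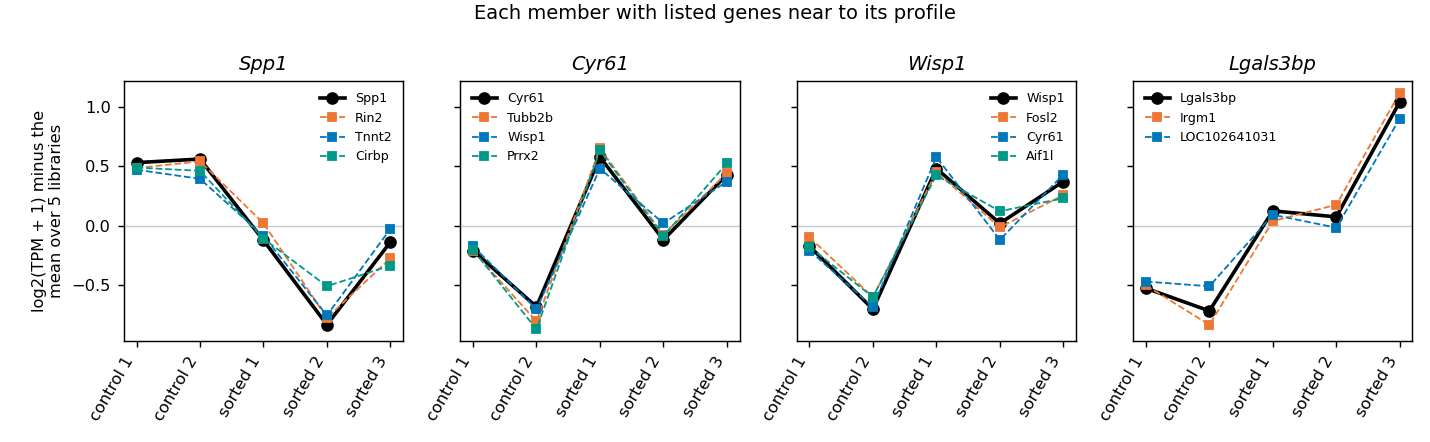
Centred log2(TPM + 1) of each gene (black) and 2 or 3 of its nearest genes (colours) in the 5 HaCa4 libraries, where lines join the values of one gene and imply no order of the libraries. *Cyr61* and *Wisp1* share a dip in sorted replicate 2, and *Lgals3bp* and its neighbours peak in sorted replicate 3.

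The HaCa4 tables hold 32 of the 64 interferon-stimulated genes listed for this work, *Lgals3bp* among them. All 32 had a positive log2 fold change, with a median of 1.24 against 0.74 over all 290 genes, and under both scalings all 32 stayed positive. In 30 of them all sorted libraries were above both controls, as in 63.1% of all genes. Where 15.9% of all 290 genes passed the thresholds upward, 8 of the 32 did. Besides *Lgals3bp* these were *Isg15*, *Ifit1*, *Irf7*, *Irf9*, *Usp18*, *Rtp4*, and *Bst2*. *Isg15*, a ubiquitin-like protein, had 5.84 and 5.51 TPM in single culture, against 29.95, 21.17, and 107.96 TPM after co-culture, and rose by 2.66 (log2; limma, adjusted p = 0.0366). *Bst2*, which tethers budding virus particles, had 11.78 and 7.44 TPM against 21.50, 39.94, and 70.32 TPM. *Ifi27* and *Ddx58*, the other abundant genes of the list, had log2 fold changes of 0.94 and 0.91 and did not pass. Of the 31 genes other than *Lgals3bp*, 30 were highest in sorted replicate 3. Their sum was 160.2 and 114 TPM in single culture, against 328, 284, and 787 TPM after co-culture. The count of 8 became 0 without control replicate 1, control replicate 2, or sorted replicate 3 (limma), 24 without sorted replicate 1, and 15 without sorted replicate 2.

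Endothelial markers were also looked up. The tables hold 25 of 52 endothelial markers, and 9 of them, such as *Cdh5* and *Emcn*, were listed at 0 in both controls. Leaving out *Jam2*, which the controls expressed at 46.70 and 46.06 TPM, the remaining 24 markers summed to 4.77 and 3.46 TPM in single culture, against 21.0, 306, and 134.5 TPM in sorted replicates 1 to 3. Of the 25 markers *Emcn* and *Plvap* passed the thresholds upward and *Jam2* downward, where 15.9% and 14.1% of all genes did, and with libraries set to a common median 13 passed upward. *Pecam1*, which encodes the CD31 used to sort LECs, had 0.14 and 0.04 TPM in single culture, against 1.29, 24.25, and 9.38 TPM after co-culture. Among the 3 sorted libraries, all 24 markers were highest in replicate 2 and lowest in replicate 1. *Spp1*, *Cyr61*, *Wisp1*, and *Lgals3bp* were each lowest among the sorted libraries in replicate 2, where the endothelial sum was highest. In sorted replicate 1, which had the lowest endothelial sum of the sorted libraries, *Cyr61* and *Wisp1* had their highest level, and *Spp1* and *Lgals3bp* lay outside the range of the controls. Without sorted replicate 2 the log2 fold changes were -0.67 for *Spp1*, 0.95 for *Cyr61*, 0.86 for *Wisp1*, and 1.20 for *Lgals3bp*. The part of endothelial transcripts in the values of the 4 genes was not tested, nor was that of the keratinocyte markers. Of 41 keratinocyte markers 4 are listed. The keratin gene *Krt8*, at 283.80 and 380.41 TPM without LECs and at 220.13, 205.34, and 238.24 TPM after co-culture, passed the thresholds downward, as did *Krt6b* (log2 change -1.87), while *Krt19* passed upward (0.97) and the desmoglein gene *Dsg3* did not pass (-0.69). With scaling on genes of at least 10 TPM *Krt8* did not pass (-0.31), and with a common median *Krt19* did not (0.16) while *Dsg3* passed downward (-1.48).

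**Figure D5:**
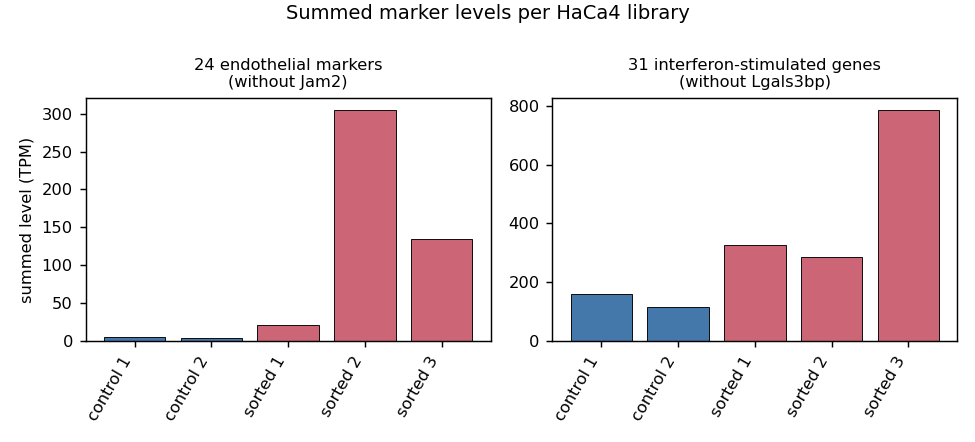
Summed TPM (y axes starting at 0, a separate scale for each panel) of 24 endothelial markers and of 31 interferon-stimulated genes in each HaCa4 library, with controls in blue and sorted libraries in red. The endothelial sum was highest in sorted replicate 2 (306 TPM) and the interferon sum in sorted replicate 3 (787 TPM).

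Of 72 genes for matricellular and other secreted matrix proteins, the tables hold 8. Of these 3 passed the thresholds upward (*Lgals3bp*, *Wisp2*, and *Tinagl1*) and 1 downward (*Spp1*), where 15.9% and 14.1% of all genes did. The median log2 fold change was 0.91 against 0.74 over all 290 genes. With libraries set to a common median, 4 of the 8 were positive and 4 negative, and the median was 0.07. *Wisp2* (also *Ccn5*) is a further CCN gene. It had 7.36 and 4.26 TPM in single culture, against 16.68, 12.62, and 16.78 TPM after co-culture, and rose by 1.29 (log2; limma, adjusted p = 0.0366). Sorted replicate 2 was again the lowest sorted library, as in *Cyr61* and *Wisp1*, and *Wisp2* stayed positive with a common median, at 0.52, without passing. *Tinagl1*, a basement membrane-associated glycoprotein, went from 60.37 and 57.26 TPM to 90.23, 112.92, and 105.80 TPM (log2 change 0.79, limma, adjusted p = 0.0308), a change that turned to -0.0658 with a common median. *Bgn*, the proteoglycan biglycan, had 0.10 and 0.15 TPM in single culture, against 0.33, 3.80, and 4.03 TPM after co-culture. After co-culture *Srpx2*, a sushi-repeat protein, was at 0.20, 3.04, and 1.44 TPM, ordered as the endothelial markers, with 0 listed in single culture. Neither passed the thresholds, and both did with a common median, at 1.19 for *Bgn* (adjusted p = 0.0385 from limma) and 1.01 for *Srpx2* (adjusted p = 0.0484 from limma). The counts of 3 and 1 both became 0 without control replicate 1, control replicate 2, or sorted replicate 3 (limma), and 5 passed upward without sorted replicate 1.

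Of 35 integrins and other receptors for such proteins, the tables hold only *Itga2* and *Itga4*. *Itga2*, the alpha chain of a collagen receptor, had 42.92 and 37.10 TPM in single culture, against 26.88, 20.53, and 25.69 TPM after co-culture. It fell by 0.70 (log2; limma, adjusted p = 0.0386), with sorted replicate 2 lowest as in *Spp1*, and did not pass with scaling on genes of at least 10 TPM (-0.44). *Itga4*, an alpha chain of receptors for VCAM1 and osteopontin, had 0.01 and 0 TPM in single culture, against 0.15, 1.35, and 0.47 TPM after co-culture. Its library order was that of the endothelial markers, and it did not pass (adjusted p = 0.157 from limma).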

How the data were processed

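The deposited values are TPM per gene and library, 1 table per library, which the authors made without pooling replicates. Per the methods and the submitters' processing notes, the authors cleaned the reads (SOAPnuke), mapped them (HISAT2 2.0.4, mouse genome GRCm38.p6), and used DESeq2 for their own tests. The tool that gave the TPM values is not given in the sources used here. Symbols were read without their quotation marks. No read depth can be had from TPM, so no counting error is given.

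Groups follow the sample titles. HaCa4-sorted (n = 3) was compared with HaCa4 control (n = 2) on log2(TPM + 1) by moderated linear models (limma 3.58.1, R 4.3.3), allowing the variance to depend on the mean level, two-sided, over 290 genes, because TPM are not counts. The 290 genes are a selection whose rule is not given, so the adjusted p-values describe this selection. In 96.6% of them the groups did not overlap, and 177 had an unadjusted p under 0.05 in limma. An adjustment over such genes raises p-values little, so passing the thresholds means less here than it would over all expressed genes. On simulated data with 145 of 290 genes changed by a log2 of 1 or 2, the limma comparison recovered 60.8% of the changed genes. There 2.11% of its calls were false. The simulation left the other genes unchanged and drew noise independently for each value, so these shares need not hold for the listed genes. No pair of replicate libraries shared more than 5 identical values above 0.

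The 4 genes, the gene lists, and the tests were chosen with earlier results of these data known. Named besides the 4 genes were every listed matrix protein and receptor, *Pecam1*, up to 4 genes of highest mean TPM in each other list, and the 3 nearest genes of each member, except that 2 genes are not reported here. Genes of the other lists that passed the thresholds, *Cdh5*, and *Jam2* were named after their values were seen. Alternatives were pseudocounts of 0.1 and 5, mean TPM of at least 1 or 10, both scalings, no trend, a replicate block, a log2 threshold of 1, and leaving out each library. The scalings and left-out libraries for the gene lists were added after seeing the data. Coordinates and promoters are from RefSeq, matched by gene ID, with promoters for 3 of the 4 members, and exon numbers from GENCODE M21. Plots used matplotlib 3.10.9, and permutation tests scipy 1.17.1 with pandas 2.3.3 in Python 3.11.15.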

Additional observations from a re-analysis of the deposited data

How the results depend on the processing

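The direction of *Spp1* and of *Lgals3bp* was the same under every alternative run. The call of *Spp1* was lost with a pseudocount of 5 (-0.91), with scaling on genes of at least 10 TPM (-0.65), and without the mean-variance trend (-0.91), and over the fits that left out 1 library its log2 fold change ranged from -1.03 to -0.67. That of *Lgals3bp* was lost with a pseudocount of 5 (0.91), with libraries set to the same median (0.20), without the trend (1.03), and with the second control numbered 3 in the block (1.20), and leaving out 1 library gave 0.72 to 1.20. *Cyr61* passed with a pseudocount of 0.1 and with either filter on mean TPM (0.74 each) and with scaling on genes of at least 10 TPM (1.002), turned to -0.13 with the same median, and ranged from 0.50 to 0.98 without 1 library. *Wisp1* passed with a pseudocount of 0.1 (0.78), with the filter at 10 TPM (0.73), and with scaling on genes of at least 10 TPM (0.97), turned to -0.0745 with the same median, and ranged from 0.46 to 0.99 without 1 library. The causes were not tested.

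The replicate numbers of the labels are shared by 2 pairs of libraries only. Their deviations from the group means correlated at 0.23 and 0.28 over genes, and those of control 2 and sorted 3 at -0.088. The deviations of 2 controls mirror each other, so these correlations cannot decide whether the numbers pair the cultures. With the replicate number as a block, *Cyr61* (0.67) and *Wisp1* (0.69) passed, and with the second control numbered 3, as its deposited table is, *Cyr61* passed (0.95).

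The number of genes past the thresholds was 87 as reported, 177 and 33 with pseudocounts of 0.1 and 5, 145 with the same median, 39 at a log2 threshold of 1, 22 with the block numbered 3, and 0 without the trend in limma (161 at an unadjusted p under 0.05). The calls were 52.9% upward as reported, 34.5% with the same median, and 84.5% with scaling on genes of at least 10 TPM. These scalings shifted the median log2 fold change by -0.72 and 0.22. Leaving out 1 library gave 0 to 194 genes, with 194 without sorted replicate 1, 6 without control replicate 1, and 0 from limma without control replicate 2 (70 at an unadjusted p under 0.05) or sorted replicate 3 (126). A control left alone is assumed to vary like the sorted libraries. With scaling on genes of at least 10 TPM, 5 matrix protein genes passed upward and 0 downward (8 genes listed, limma), and without 1 library 0 to 5 and 0 to 1. Of the interferon-stimulated genes 13 passed with the same median and 0 to 24 without 1 library. Of the 4 members, 1 kept separate groups with the same median. The log2 difference of *Wisp1* to *Cyr61* was -0.17 with a pseudocount of 5, -0.012 without control replicate 2, and -0.021 without sorted replicate 2, in a range of -0.021 to 0.0976. The other 5 pairs kept their direction in the same alternatives, from 1.40 to 1.90, 1.39 to 2.002, 1.77 to 2.25, 0.07 to 0.61, and 0.01 to 0.53 without 1 library.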

Other observations

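Other genes of the pathways to which *Cyr61* and *Wisp1* belong were few in the tables. Of 27 YAP/TAZ targets 4 are listed, not all of them reported here. Their log2 fold changes were positive in 2 and negative in 2, with a median of 0.18. With libraries set to a common median, 1 was positive and 3 were negative, with a median of -0.67. With scaling on genes of at least 10 TPM, 2 were positive and 2 negative, with a median of 0.44. *Nt5e*, the surface enzyme CD73, fell from 52.31 and 45.21 TPM to 26.99, 30.88, and 26.07 TPM (adjusted p = 0.0308 from limma). *Nuak2*, a stress-activated kinase, was at 30.86 and 26.48 TPM against 21.88, 22.12, and 21.29 TPM and did not pass, while with libraries set to a common median it passed downward (-1.22). Of 23 WNT/beta-catenin targets the tables hold *Wisp1*, *Wisp2*, and *Sp5*. The transcription factor *Sp5* was at 0.22, 2.65, and 1.19 TPM after co-culture, with 0 listed in single culture, and did not pass. Its library order was that of the endothelial markers.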
